A study of Mus musculus with 6 samples.

Results

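Chemokines and their receptors were followed in astrocytes of the upper and the deep layers of the mouse somatosensory cortex. The genes were Cxcr7, Ccrl1, Cxcr4, Cxcl14, Cxcl12, Cx3cl1, Cxcl16, Ccl2 and Cxcl10, and each was taken as the row of the deposited expression table that carries its symbol. All 9 were found among the 43383 rows of the table. They had been picked with the layer comparison of these same libraries in view, so their differences between layers are given below as a description, and the count of them that passed the fit over all rows is printed once and supports nothing.

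Astrocytes were sorted as GFP-positive cells from Aldh1l1-eGFP mice, in which a transgene carrying regulatory sequence of the astrocyte gene Aldh1l1 drives green fluorescent protein. All mice were 4-week-old males that carried the reporter. Upper-layer astrocytes (ULAs, layers II to IV) and deep-layer astrocytes (DLAs, layers V and VI) came from the same 3 brains, after the meninges, layer I, the corpus callosum and tissue at the border of layers IV and V had been cut away. This gave 6 RNA-seq libraries, 1 for each layer of each brain. Values are in RPKM, that is, reads divided by the length of the mRNA and by the depth of the library, so that levels of different genes can be set beside each other. The libraries held 19.7 to 29.6 M reads. Summed over 12 astrocyte markers the RPKM was 11186 to 11873 in ULAs and 10210 to 11174 in DLAs, whereas 12 neuron markers summed to 9.24 to 9.57 and 6.70 to 9.16.

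Chemokines are small secreted or membrane-bound proteins that act through G protein-coupled receptors and guide the migration and contacts of cells. A separate group of atypical receptors, among them Cxcr7 (now named Ackr3) and Ccrl1 (now Ackr4), binds chemokines without the usual G protein signal and takes them up, which sets how much ligand the surrounding cells meet. In the brain, chemokines are known for traffic between neurons, glia and microglia and for the recruitment of immune cells when tissue is damaged.

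RefSeq start sites (build GRCm38.p6) were at hand for 7 of the 9 genes, and 3 of these upstream regions are printed. Those of Cxcr7 and Ccrl1 are shown because the ULA and DLA values of these 2 receptors did not overlap, and that of Cxcl14 because its mRNA was by far the most abundant. Each run covers the 250 bases before the start, read 5′ to 3′ on the strand of the gene. Capitals mark the letters TATAAA (the core of a TATA box) and GGGCGG (a GC box), searched on both strands, where they read TTTATA and CCGCCC on the other strand. The Cxcr7 region is chr1:90203730-90203979 on the plus strand, that of Ccrl1 is chr9:104126644-104126893 on the minus strand, and that of Cxcl14 is chr13:56296552-56296801 on the minus strand.
Cxcr7 upstream: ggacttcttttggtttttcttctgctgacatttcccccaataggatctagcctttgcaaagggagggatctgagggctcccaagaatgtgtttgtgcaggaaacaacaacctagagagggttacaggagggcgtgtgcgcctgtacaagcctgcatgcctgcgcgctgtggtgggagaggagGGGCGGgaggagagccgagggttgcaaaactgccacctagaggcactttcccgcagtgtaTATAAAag
Ccrl1 upstream: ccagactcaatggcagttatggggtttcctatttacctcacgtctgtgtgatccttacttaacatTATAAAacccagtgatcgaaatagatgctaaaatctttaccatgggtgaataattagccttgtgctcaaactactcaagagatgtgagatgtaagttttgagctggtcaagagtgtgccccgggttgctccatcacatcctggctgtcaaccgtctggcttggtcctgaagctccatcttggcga
Cxcl14 upstream: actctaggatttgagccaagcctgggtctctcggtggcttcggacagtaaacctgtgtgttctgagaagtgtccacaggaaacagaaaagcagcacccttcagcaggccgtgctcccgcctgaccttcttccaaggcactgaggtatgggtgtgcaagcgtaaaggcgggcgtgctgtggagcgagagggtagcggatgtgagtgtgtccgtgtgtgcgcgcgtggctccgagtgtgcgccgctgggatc
In the Cxcr7 region TATAAA began 8 bases before the annotated start, and a GC box lay farther upstream. In the Ccrl1 region TATAAA began 185 bases before the start and there was no GGGCGG, and the Cxcl14 region held neither. Of 27025 upstream regions of the same length, 1 for each RefSeq gene, 13.0% held TATAAA and 32.9% held GGGCGG. These matches describe the letters only.

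The levels of the 9 mRNAs spanned a wide range, and 1 ligand stood far above the rest. Cxcl14, a conserved ligand of the CXC family, ranked 150 among all rows by its mean over the 6 libraries. The receptor Ccrl1 ranked 7444, Cxcr7 ranked 10574 and the ligand Cx3cl1 ranked 11424. The other 5 had a mean RPKM under 1, with Cxcl10 at 0.493, Cxcr4 at 0.41, Cxcl16 at 0.20, Cxcl12 at 0.0167 and Ccl2 at 0. In ULAs the order by mean was Cxcl14, Ccrl1, Cx3cl1 and Cxcr7, and in DLAs Cxcr7 stood above Cx3cl1 and beside Ccrl1. Over both layers the level of Cxcr7 overlapped that of Cx3cl1. Cxcl10, Cxcr4 and Cxcl16 are neighbours in this order whose values across libraries also overlapped.

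**Figure D1:**
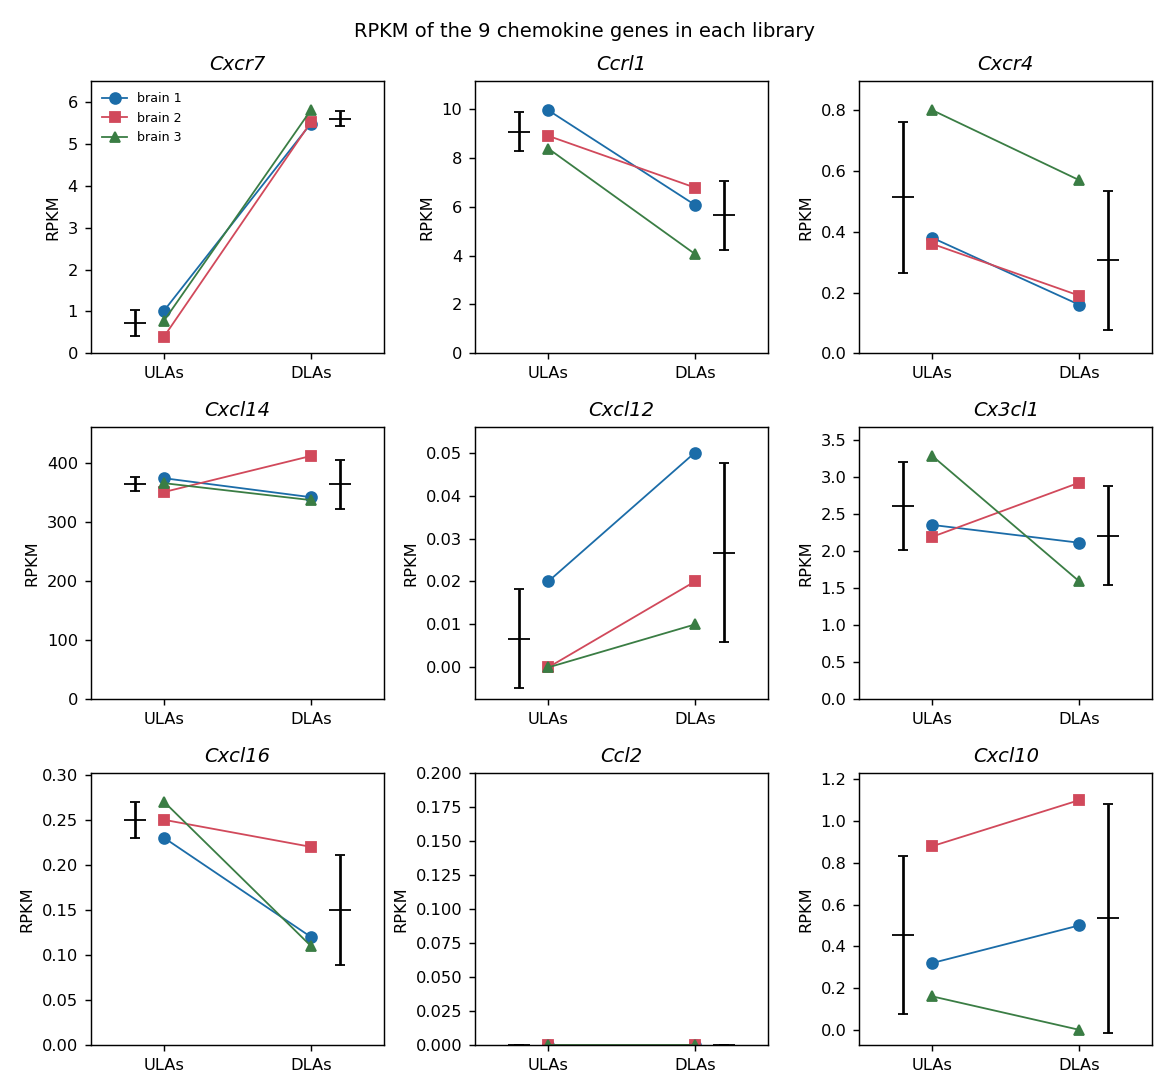
RPKM (vertical axes, linear, each with its own scale) of the 9 genes in ULAs and DLAs, with 1 symbol and line per brain and black bars for the mean ± SD of 3 libraries. The Cxcr7 lines climb from 0.40 to 1.02 in ULAs to 5.49 to 5.81 in DLAs, the Ccrl1 lines descend in all 3 brains, and Ccl2 lies at 0 throughout.

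Cxcr7, the atypical receptor that binds and removes Cxcl12 and Cxcl11, was low in ULAs and several-fold higher in DLAs of every brain. Its row lies on chromosome 1 (mm9, 92100555 to 92112297, plus strand) and has 3 exons. In the ULAs of brains 1, 2 and 3 its RPKM was 1.02, 0.40 and 0.78. In the DLAs of the same brains it was 5.49, 5.52 and 5.81. The groups did not overlap, and the 3 DLA libraries lay close together. These values rested on 58, 24 and 49 reads in ULAs and on 339, 252 and 399 reads in DLAs. ULAs had a mean of 0.733 ± 0.313 (SD, n = 3) and DLAs of 5.61 ± 0.177, a ratio of 7.65, and the DLA to ULA ratio was 5.38, 13.8 and 7.45 in brains 1, 2 and 3. Relative to the value, counting error was widest in the ULAs of brain 2, where the exact 95% Poisson interval ran from 0.259 to 0.601 RPKM. In the fit over all rows the difference, ULAs minus DLAs on the log2(RPKM + 1) scale, was −1.95 with an SE of 0.16. This scale understates the change of a gene at a low level.

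Of the 9 genes, 4 reached a mean RPKM of 1 and entered that fit, and 1 of these 4, Cxcr7, had an adjusted p under 0.05 by limma with Benjamini-Hochberg adjustment. Over all 13999 rows tested 1.63% passed, 0.714% with the higher value in ULAs and 0.914% with the higher value in DLAs. These were 100 and 128 rows, against 138 and 103 after quantile normalization and 431 and 695 without brain 3. Values of ULAs and DLAs did not overlap for 2 of the 4 genes, against 15.9% of all rows tested (6.59% higher in ULAs and 9.27% higher in DLAs). Since the genes were chosen on this contrast, nothing is read from these counts. The median log2 difference was 0.09 for the 4 genes and −0.03 for all rows tested.

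Markers of oligodendrocytes and of blood moved in the same direction as Cxcr7. Of 12 markers of myelinating oligodendrocytes 10 were tested and 8 passed as lower in ULAs. Mbp, a main protein of myelin, had an RPKM of 14.95, 10.50 and 15.87 in the 3 ULA libraries and of 35.24, 37.97 and 36.54 in the DLA libraries. No marker was at 0 in all libraries. By brain the summed RPKM of the 12 markers was 93.8, 90.1 and 191 in ULAs and 185, 213 and 302 in DLAs, so that it was higher in the DLAs of each brain, as Cxcr7 was, and the ranges of the layers overlapped.

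The 4 blood markers of the table were 3 hemoglobin rows and Alas2, and their sum was 0.94 to 1.79 in ULAs and 15.4 to 76.7 in DLAs. The hemoglobin rows Hbb-b1 and Hbb-b2 were at 0 in every ULA library, and they are near-identical copies whose reads may be shared. Oligodendrocyte precursor markers (8 genes) summed to 85.5 to 97.0 in ULAs and 97.5 to 134 in DLAs, and neither of the 2 tested passed by limma (both had an unadjusted p under 0.05). Most of this sum was Olig1, at 79.96 to 90.81 in ULAs and 87.19 to 125.49 in DLAs. Pdgfra, Gpr17 and Neu4 stayed at 0.07 RPKM or below. Among low markers, Cspg4 was higher in the ULAs of each brain, and Sox10 and Matn4 were higher in the DLAs of each brain. Endothelial markers summed to 1.78 to 2.47 in ULAs and 1.03 to 4.89 in DLAs, with overlap. Fibroblast markers (8 genes) summed to 3.11 to 4.11 in ULAs and 4.98 to 6.29 in DLAs, without overlap. Most of this was Col1a1, the 1 gene tested, which did not pass (log2 difference −0.55, adjusted p = 0.130 by limma). The part of these cells in the Cxcr7 difference was not tested. In sorted bulk samples, fewer cells of a type and less RNA per cell cannot be told apart.

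**Figure D2:**
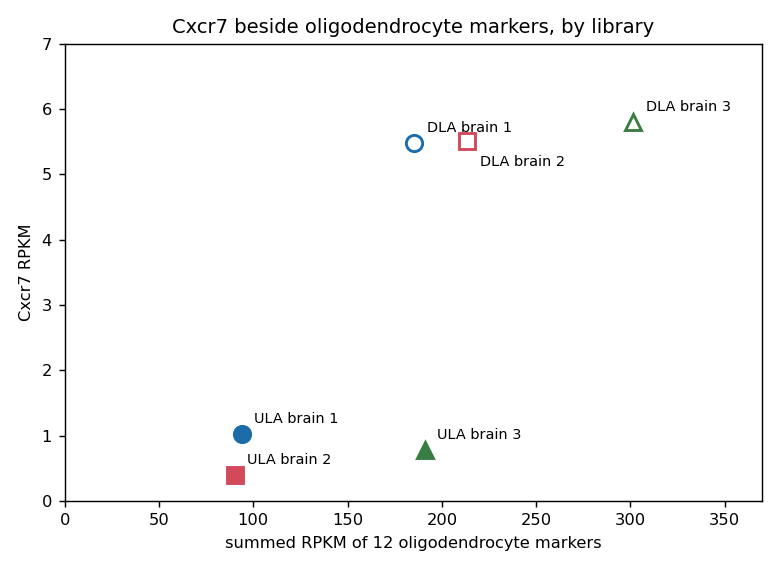
Cxcr7 RPKM (vertical axis) against the summed RPKM of 12 oligodendrocyte markers (horizontal axis), 1 point per library, filled for ULAs and open for DLAs. Both measures are higher in the DLAs of each brain. The marker sums of the layers overlap (90.1 to 191 in ULAs, 185 to 302 in DLAs) and the Cxcr7 values do not (0.40 to 1.02 and 5.49 to 5.81).

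The genes most like Cxcr7 over the 6 libraries, by Pearson's r of log2(RPKM + 1), were Actr3b (r = 0.994), Plekhb1 (0.993), Id3 (0.992), Mbp (0.991) and Arl3 (0.990). These are correlations over 6 points in 2 layers and are given as a description. Id3, an inhibitor of basic helix-loop-helix factors and a target of BMP signalling, was at 126.55, 112.33 and 139.62 RPKM in ULAs and at 485.71, 542.18 and 561.37 in DLAs. Arl3 separated the layers over a much narrower range, with means of 56.9 in ULAs and 63.8 in DLAs.

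The partners of Cxcr7 in the Cxcl12 axis were scarce in both layers. Cxcl12, the ligand that both Cxcr7 and Cxcr4 bind, was listed at 0.02, 0 and 0 RPKM in ULAs (brains 1, 2 and 3) and at 0.05, 0.02 and 0.01 in the DLAs. These values correspond to at most 5 reads in any ULA library and at most 11 in any DLA library, and 3 reads in a library would have given 0.0142 to 0.0213 RPKM. No ratio was formed. Cxcl11, a further chemokine ligand of Cxcr7, was at 0.30, 0.09 and 0.16 RPKM in ULAs and at 0, 0.12 and 0.18 in DLAs.

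Cxcr4, the G protein-coupled receptor of Cxcl12, was at 0.38, 0.36 and 0.80 RPKM in ULAs and at 0.16, 0.19 and 0.57 in DLAs. Within each brain it was higher in ULAs, by a ratio of 2.38, 1.89 and 1.40, but the layers overlapped because brain 3 was highest in both. The reads behind it were few, 73 over the 3 ULA libraries and 46 over the 3 DLA libraries, and the Poisson intervals of brain 1 (0.223 to 0.614 in ULAs, 0.0716 to 0.327 in DLAs) overlapped. In RPKM, Cxcr7 was 2.68, 1.11 and 0.975 times Cxcr4 in the ULAs of brains 1, 2 and 3 and 34.3, 29.1 and 10.2 times Cxcr4 in the DLAs.

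Ccrl1, the atypical receptor that removes Ccl19, Ccl21 and Ccl25, went the other way and was higher in ULAs. Its RPKM was 9.96, 8.91 and 8.39 in the ULAs of brains 1, 2 and 3. In the DLAs it was 6.08, 6.79 and 4.07. The lowest ULA library lay above the highest DLA library, and the spread was wider in DLAs, where brain 3 was lowest. ULAs averaged 9.09 ± 0.80 (SD, n = 3) and DLAs 5.65 ± 1.41, and the ratio of ULA to DLA was 1.64, 1.31 and 2.06 in brains 1, 2 and 3. The libraries held 254 to 514 reads of this gene. The log2(RPKM + 1) difference was 0.62 with an SE of 0.14. Ccrl1 exceeded Cxcr7 by a ratio of 9.76, 22.3 and 10.8 in ULAs, whereas the ratio in DLAs was 1.11, 1.23 and 0.701.

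Ccrl1 lies on chromosome 9 (mm9, 104000468 to 104028973, minus strand) and its exons overlap those of 2 other rows. Its 2109 bases of mRNA share 62 with Acad11, which runs on the opposite strand, and 266 with the Ensembl row ENSMUSG00000041748, which runs on the same strand. Acad11, an acyl-CoA dehydrogenase, was at 15.94, 14.64 and 14.82 RPKM in ULAs and at 12.98, 14.03 and 10.91 in DLAs. ENSMUSG00000041748 was at 7.19, 6.07 and 7.07 in ULAs and at 5.21, 4.39 and 3.79 in DLAs. Both were thus higher in ULAs in all 3 brains, as Ccrl1 was, with log2 differences of 0.25 and 0.51. The kit does not mark strand, and how reads on shared bases were assigned is not given in the sources used here, so part of the Ccrl1 value is uncertain. On GRCm38 the whole of Ccrl1, its upstream region included, lies within the span of Acad11 (104063724 to 104127656).

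**Figure D3:**
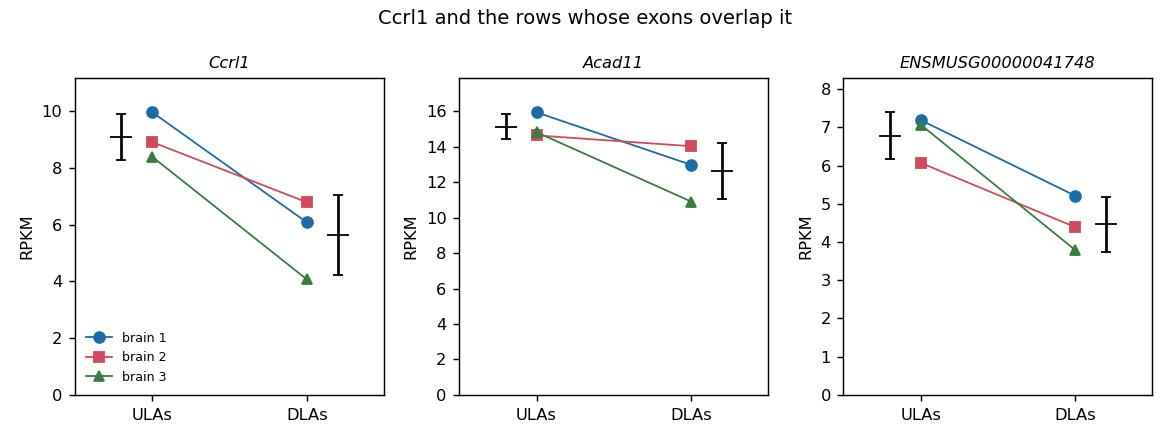
RPKM (vertical axes, from 0) of Ccrl1 and of the 2 rows whose exons overlap it, by layer, with 1 symbol and line per brain and black bars for the mean ± SD of 3 libraries. All 3 rows are lower in DLAs in each brain, and in RPKM the step between means is largest for Ccrl1 (9.09 to 5.65).

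Among the 5 genes whose pattern was most like that of Ccrl1 were Dusp15 (r = 0.992), Rfc5 (0.989), Dbndd2 (0.988) and Prkx (0.988), again over 6 libraries and as a description. Acad11 followed at position 9 (0.985). Of the ligands Ccrl1 takes up, Ccl25 was at 2.93, 2.94 and 2.72 RPKM in ULAs and at 2.69, 2.78 and 3.77 in DLAs, without a difference that passed (log2 difference −0.07, SE 0.15, adjusted p = 0.861 by limma). The signalling receptors of these ligands were near the limit of detection, with Ccr7 at 0.01 RPKM or below and Ccr9 at 0.02 to 0.16.

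Cxcl14 was abundant in both layers, and the means of the layers differed by less than the spread between brains. Its RPKM was 374.68, 351.27 and 366.27 in ULAs and 342.52, 412.35 and 337.57 in DLAs. The layers overlapped, and the highest and the lowest of the 6 values were both from DLAs. ULAs averaged 364 ± 11.9 (SD, n = 3) and DLAs 364 ± 41.8, with a log2 difference of 0.01 (SE 0.10), on 14793 to 18210 reads per library. Cxcl14 made up 93.0% of the RPKM summed over the 62 chemokine ligands and receptors found in the table.

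Cx3cl1 (fractalkine) is made as a membrane protein, is shed by the proteases Adam10 and Adam17 and is read by Cx3cr1 on microglia. Its RPKM was 2.35, 2.19 and 3.28 in ULAs and 2.11, 2.92 and 1.59 in DLAs. The layers overlapped, and brain 2 had the higher value in DLAs while brains 1 and 3 had it in ULAs. The log2 difference was 0.18 (SE 0.20). Adam10 (10.99 to 17.00 RPKM) and Adam17 (9.36 to 13.66) were expressed in all libraries and did not pass, at adjusted p of 0.515 and 0.408 by limma. Cx3cr1 was at 0.06 to 0.26 RPKM.

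Of 13 microglia markers, Cx3cr1, Aif1, Itgam, Ptprc, Tmem119 and Trem2 stayed under 0.30 RPKM in all libraries, whereas P2ry12 (7.76 to 12.60) was well above 1. P2ry12 did not pass between layers (log2 difference 0.35, adjusted p = 0.199 by limma).

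The remaining ligands were low or not detected. Cxcl16, a membrane-bound ligand of Cxcr6, was at 0.23, 0.25 and 0.27 RPKM in ULAs and at 0.12, 0.22 and 0.11 in DLAs. The layers did not overlap, but only 48 and 27 reads stood behind them, and the Poisson intervals of the layers overlapped in every brain. Of its 2448 bases, 363 are shared with Zmynd15, which stayed at 0.03 RPKM or below. Cxcr6 was at 0.14, 0.90 and 0.47 in ULAs and at 0.09, 0.13 and 0.21 in DLAs, with no test at this level.

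Cxcl10, an interferon-induced ligand of Cxcr3, was at 0.32, 0.88 and 0.16 RPKM in ULAs and at 0.50, 1.10 and 0 in DLAs. It followed the brain and not the layer, with brain 2 highest in both, and both layers held 39 reads. Art3, whose span on the opposite strand contains Cxcl10 without sharing exon bases, was at 20.30, 20.22 and 18.56 in ULAs and 8.56, 9.40 and 7.20 in DLAs. Ccl2, a monocyte attractant, had 0 reads in all 6 libraries, which allows up to 0.126 to 0.189 RPKM in a single library (3 reads) and 0.0244 over the 6 together. These intervals and limits cover counting error only. Cxcr3 and Ccr2, the receptors of Cxcl10 and Ccl2, were listed at 0 throughout.

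The other members of the chemokine family gave the background for these levels. Of the symbols of 38 further ligands 30 were in the table, and 15 of them were at 0 in all libraries. Of 25 further receptors 23 were in the table, and 6 were at 0 in all. Among these 53 genes, 46 stayed under 0.5 RPKM in every library and 4 reached a mean of 1, namely the ligands Ccl27a, Cxcl17 and Ccl25 and the receptor Ccrl2. By limma 0 of the 4 passed, and 1, Ccrl2, had an unadjusted p under 0.05. Of the ligands linked to inflammation, Ccl3, Ccl4, Ccl7 and Cxcl2 were at 0 in all 6 libraries, whereas Ccl5 reached 0.37 RPKM, Ccl12 0.14 and Cxcl1 0.05 in their highest library.

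Ccrl2, an atypical receptor that holds chemerin at the cell surface, came nearest to passing. It was at 1.02, 0.86 and 1.57 RPKM in ULAs and at 1.76, 1.75 and 3.49 in DLAs, and it was higher in the DLAs of all 3 brains. Its log2 difference was −0.61 (SE 0.16, adjusted p = 0.0986 by limma). Ccl27a was at 2.64, 3.07 and 2.69 in ULAs and 3.81, 3.60 and 3.20 in DLAs (log2 difference −0.26, SE 0.14, adjusted p = 0.402 by limma), but near-identical copies in the genome may share its reads.

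**Figure D4:**
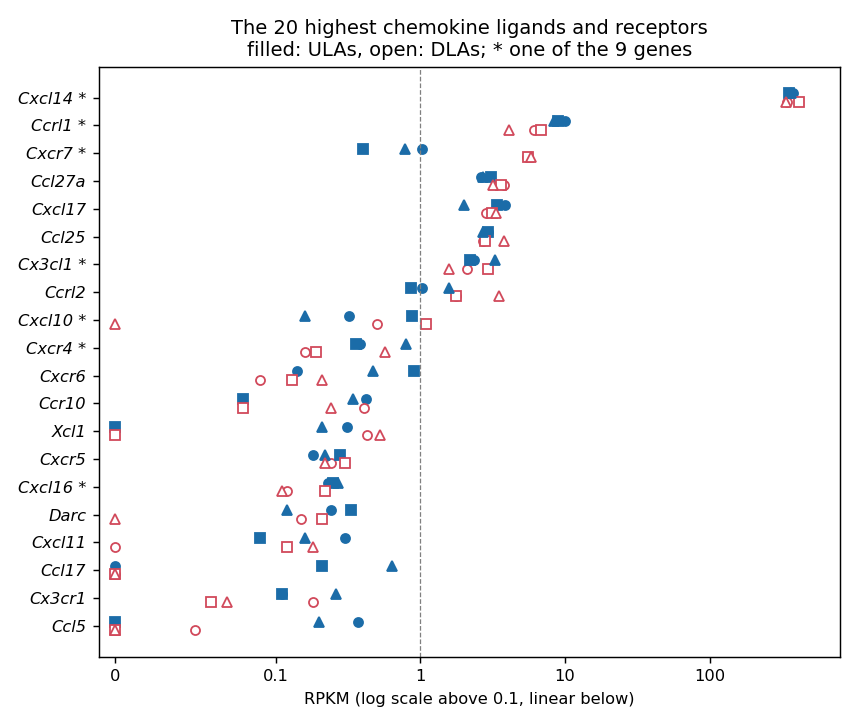
RPKM (horizontal axis, log scale above 0.1 and linear below) of the 20 chemokine ligands and receptors with the highest mean, 3 filled points for ULAs and 3 open points for DLAs, with circles, squares and triangles for brains 1, 2 and 3. Cxcl14 stands near 364, 7 genes have means between 1 and 10, and the rest lie under 1, where the points of single genes scatter down to 0.

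Downstream of the receptors, most signalling genes were expressed and 1 passed the test between layers. Of 38 listed G proteins, receptor kinases, arrestins, RGS proteins and effectors, 36 were in the table and 27 were tested. Of these 1 was higher in ULAs, none was lower and 26 did not pass, with a median log2 difference of −0.02. An unadjusted p under 0.05 was found for 8 of the 27, and for 2295 of all 13999 rows tested. The inhibitory G protein subunits through which chemokine receptors signal were well expressed, with Gnai2 at 106 to 125 RPKM, Gnai3 at 32.84 to 37.04 and Gnao1 at 95.18 to 122. The arrestin Arrb1 (6.20 to 8.59) and the receptor kinase Adrbk2 (17.59 to 30.48) were also detected in all libraries. The effectors Cdc42, Elmo2, Plcb1, Dock1, Rhoa, Mapk3, Itch, Plcb3 and Akt1, the subunits Gnb2, Gng5 and Gnai1 and the regulator Rgs2 had mean RPKM of at least 5 and did not pass.

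Rgs5, a GTPase-activating protein that shortens G protein signals, was the signalling gene that passed. It was at 1.98, 2.06 and 2.70 RPKM in ULAs and at 1.01, 0.75 and 0.93 in DLAs, without overlap (log2 difference 0.77, SE 0.16, adjusted p = 0.0455 by limma). Rgs5 is also a marker of pericytes, and the 9 mural cell markers summed to 16.1 to 23.2 in ULAs and 12.01 to 19.17 in DLAs. This sum includes Rgs5 itself and was mostly Pdgfrb, at 12.21 to 19.84 in ULAs and 10.31 to 16.91 in DLAs. Tagln was at 0.61 to 1.21 RPKM, and Kcnj8, Abcc9, Acta2, Myh11, Vtn and Higd1b stayed at 0.30 or below. The part of mural cells in the Rgs5 value was not tested. Without brain 2 the adjusted p of Rgs5 was 0.0976, and without the pairing by brain it was 0.145.

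The effector Rac1 and the subunit Gnb1 showed a pattern by brain. Rac1 was at 15.71, 8.65 and 17.61 RPKM in ULAs and at 53.08, 8.0 and 43.94 in DLAs, and Gnb1 was at 29.96, 23.86 and 28.91 and at 71.90, 19.45 and 52.31. Both were high in the DLAs of brains 1 and 3 and low in brain 2, and neither passed (adjusted p of 0.117 and 0.235 by limma).

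Of 21 genes that bind, cut or present chemokines or serve as other partners of Cxcr4 and Cxcr7, 13 were tested and 0 passed by limma, 2 having an unadjusted p under 0.05 (median log2 difference −0.02). The set included Mif, a further ligand of Cxcr4 and Cxcr7 (40.99 to 56.28 RPKM), the heparan sulfate carriers Sdc2 (119 to 145), Sdc4 (47.15 to 58.48), Gpc1 (9.37 to 20.56) and Gpc4 (22.07 to 28.98), the protease Mmp14 (31.45 to 55.72), Hmgb1 (6.24 to 10.42), Egfr (21.48 to 30.34) and the receptor partner Ramp2 (41.26 to 50.97). Ramp1 came nearest, at 99.29, 95.76 and 104.33 RPKM in ULAs and at 125.60, 134.50 and 121.99 in DLAs, without overlap (log2 difference −0.35, SE 0.10, adjusted p = 0.121 by limma).

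Genes of the inflammatory and interferon pathways that induce chemokines gave 1 gene that passed. Of 29 genes 18 were tested, 1 was higher in ULAs, none was lower and 17 did not pass, with a median log2 difference of 0.00. An unadjusted p under 0.05 was found for 4 of the 18. Stat3, a transcription factor of cytokine signalling, was at 22.01, 20.86 and 20.80 RPKM in ULAs and at 15.58, 15.02 and 12.63 in DLAs, without overlap (log2 difference 0.53, SE 0.11, adjusted p = 0.0492 by limma). This call lay close to the threshold, and the adjusted p was 0.184 without brain 1, 0.0544 without brain 2 and 0.186 without the pairing by brain. Ifit3, an interferon-induced gene, was at 2.59, 1.52 and 3.44 in ULAs and at 3.95, 4.57 and 6.06 in DLAs (log2 difference −0.76, adjusted p = 0.0537 by limma). The receptors Tnfrsf1a, Ifnar1, Ifnar2, Ifngr1 and Ifngr2 and the factors Nfkb1, Rela, Nfkbia, Stat2 and Irf3 had mean RPKM between 5.67 and 41.1 and did not pass.

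Immediate early genes, which rise when tissue is dissociated, were tested for 8 of 16 listed. Jund passed, at 4.55, 0.71 and 5.87 RPKM in ULAs and 13.76, 2.20 and 9.95 in DLAs (log2 difference −0.996, SE 0.16, adjusted p = 0.0148 by limma), and the other 7 did not. Brain 2 was lowest in both layers, so the layers overlapped although DLAs were higher in each brain. Ier3 went the other way, at 8.10, 7.51 and 4.18 RPKM in ULAs and 4.93, 5.41 and 2.54 in DLAs (log2 difference 0.53, adjusted p = 0.0901 by limma). The layers overlapped for all 8 tested genes, whose median log2 difference was −0.01. An unadjusted p under 0.05 was found for 2 of the 8. Fos was at 1.93 to 4.34 RPKM over the 6 libraries.

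**Figure D5:**
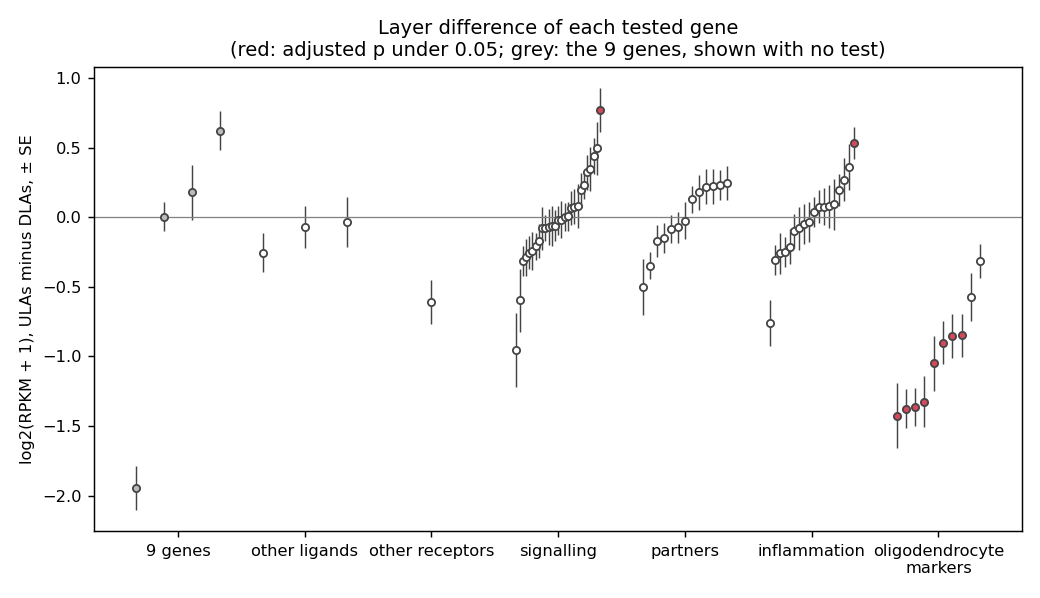
Difference between ULAs and DLAs on the log2(RPKM + 1) scale with its SE (vertical axis) for each tested gene of the 9 chemokine genes, of 5 lists of related genes and of the oligodendrocyte markers (horizontal axis). Cxcr7 lies at −1.95, the related lists scatter around 0 with Rgs5 (0.77) and Stat3 (0.53) in red, and 8 of 10 oligodendrocyte markers are red below 0.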

How the data were processed

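The authors sequenced cDNA of sorted astrocytes (SMART-Seq v4 and Nextera XT, no molecular identifiers) and deposited RPKM values cut to 2 decimals with the mRNA length of each row. The submitters' processing notes name bcl2fastq 1.8.4, CASAVA 1.8.2 and build mm9. The aligner and counting program are not given in the sources used here. Depth was recovered from the steps of RPKM in rows of 100 to 500 bases (100% whole reads).

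The 9 genes and all gene lists were chosen with earlier results of these data known. The 13999 rows averaging at least 1 RPKM were fitted on log2(RPKM + 1) with limma 3.58.1 in R 4.3.3, with brain and layer as terms, an intensity trend, 2-sided p-values and Benjamini-Hochberg adjustment at 0.05. The replicate number was taken as the brain, as in the study's supplementary lists, and same-brain libraries deviated together (r = 0.333 to 0.422, against −0.199 to −0.16 otherwise). Exact permutation over 3 pairs cannot give a p under 0.25. Named were the 9 genes, genes of chemokine lists with a mean RPKM of at least 5 or a passed test, and the 5 genes most like Cxcr7 and Ccrl1. Some genes that this rule names are not reported here. Any further feature was picked with its values known. The fit was tested on simulated data with 200 of 13999 genes changed. It recovered 0% of changes of log2 0.5, 50% of log2 1 and 90.5% of log2 2. A gene that did not pass is thus not shown to be unchanged. Python 3.11.15 was used for the rest. The alternatives are given in the closing section.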

Additional observations from a re-analysis of the deposited data

How the results depend on the processing

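Alternatives were a model without the replicate block, another pseudocount (0.1), no filter, a stricter filter (mean RPKM 5), a length correction, scaling by medians or by quantiles, no variance trend, and each brain left out. Against 100 genes called in favour of ULAs and 128 of DLAs, 23 and 18 passed without the pairing by brain (no replicate block), 0 and 0 without a filter (27963 rows) and 65 and 79 without the trend. With the length correction 70 passed as higher in DLAs. Leaving out a brain gave 96 to 431 and 121 to 695, the upper ends both without brain 3. Quantile normalization turned the split to 138 higher in ULAs and 103 higher in DLAs.

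For the signalling, partner and inflammation genes, the 2 higher in ULAs became 0 without the replicate block, with the pseudocount of 0.1 and without a filter. They became 1 with the stricter filter, median centring, quantile normalization, the length correction or no trend, and were 0 to 4 with a brain left out. Those higher in DLAs were 0, and 1 to 6 with a brain left out, the most without brain 3. The other ligands and receptors stayed at 0 passed in all 11 alternatives.

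The Cxcr7 difference kept its direction in all 10 alternatives that held it (−2.85 to −1.81). It was −1.95 without a filter, where, as for all other rows, it did not pass. The Ccrl1 difference was 0.49 to 0.76 in 11 alternatives. It did not pass as reported (0.62) or in 9 alternatives, and passed with the stricter filter (0.62) and without brain 2 (0.76). These members were chosen on this contrast, so the calls support nothing. With a brain left out Cxcl14 ran from −0.057 to 0.12, and was −0.057 without brain 1 and −0.05 without brain 3. Cx3cl1 ran from −0.10 without brain 3 to 0.42 without brain 2. Cxcl10 lay at −0.04 and turned to 0.19 with the pseudocount of 0.1, and without a brain it ran from −0.17 (brain 3) to 0.027 (brain 1), with 0.01 without brain 2. Except where an alternative's own row filter explains the change, the cause was not tested. Depth limits Cxcr4, Cxcl16, Cxcl10 and Cxcl12, with at most 39 reads in a library.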

Other observations

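Adm, which encodes adrenomedullin, a peptide that Cxcr7 also binds and removes, was higher in ULAs. It was chosen for mention after its values were seen, and its mean lay under the level for testing. Its RPKM was 0.35, 0.30 and 1.81 in the ULAs of brains 1, 2 and 3 and 0.10, 0.03 and 0.19 in the DLAs. ULAs were higher in 3 of 3 brains and the layers did not overlap, in the direction opposite to Cxcr7.

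Gfap, the intermediate filament of astrocytes, and the BMP targets Id1 and Id3 were lower in ULAs. Gfap was at 12.18, 12.49 and 10.37 RPKM in ULAs and at 23.82, 28.82 and 17.77 in DLAs (log2 difference −0.93, adjusted p = 0.00556 by limma). Id1 was at 3.44, 3.42 and 4.31 in ULAs and at 32.29, 40.25 and 59.07 in DLAs (log2 difference −3.21, adjusted p = 6.27e-06 by limma). They were the genes that passed, with Id3, among the 8 tested of 11 genes of pial and white matter astrocytes. The other 5 did not pass, and the median log2 difference of the 8 was −0.03. Cd44 and Fabp7 went the other way and were higher in the ULAs of each brain. Cd44 was at 7.25, 6.38 and 5.64 RPKM in ULAs and at 3.36, 3.55 and 4.95 in DLAs (log2 difference 0.59, adjusted p = 0.115 by limma). The log2 difference of Fabp7 was 0.33 (adjusted p = 0.141 by limma). Of 12 astrocyte markers tested, Gfap alone passed. An unadjusted p under 0.05 was found for 5 of the 12 by limma, and the layers did not overlap for 6. Of these, Slc1a3, Slc1a2, Gja1 and Fgfr3 were higher in ULAs, and S100b and Gfap were higher in DLAs. The adjusted p by limma was 0.0554 for Slc1a3, 0.192 for Gja1 and 0.0570 for Fgfr3. The paper lists these last genes as enriched in upper layers.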
